A study of Homo sapiens with 9 samples.

Results

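The genes described here are the 71 protein-coding histone genes named HIST1H to HIST4H among the 58735 genes listed in 9 RNA-seq libraries. The rule that chose them uses name and biotype and no measured value. They comprise 6 genes for linker histone H1, 17 for H2A, 18 for H2B, 15 for H3 and 15 for H4. The libraries came from HEK293T cells, a line of human embryonic kidney origin that expresses large T antigen of SV40, in which PRPS1 carries an HA and dTAG fusion and PRPSAP1 a V5 and BromoTag fusion. PRPS1 makes phosphoribosyl pyrophosphate, the ribose donor of nucleotide synthesis, and PRPSAP1 is a protein associated with it. The groups were 3 libraries treated with 500 nM dTAG47, a degrader directed at the dTAG on PRPS1, 3 treated with 500 nM AGB1, a degrader directed at the BromoTag on PRPSAP1, and 3 given DMSO, each for 24 h. All groups share both tagged alleles, and cells without the tags were not analysed here. Whether the line is 1 clone, and whether replicate libraries were grown as separate cultures, is not stated in the labels, so the spread behind each p-value may be technical.

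Replication-dependent histone genes supply the proteins that package newly made DNA, and most of their transcription takes place in S phase. Their genes lie in clusters, mostly lack introns, and many H2A and H2B genes stand head to head around a shared promoter region. Their mRNAs are unusual in ending at a short stem-loop, bound by SLBP and cut by a complex that contains the U7 snRNP, in place of a poly(A) tail. Some of these genes can also be cleaved and polyadenylated at a site beyond the stem-loop, and replacement histones such as H3.3 are made from ordinary polyadenylated mRNAs throughout the cell cycle. These libraries were made from RNA selected on poly-T beads. The values below are therefore levels of the histone RNA that passed this selection, and the stem-loop-ended pool was not measured separately.

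The stem-loop is shown first because it is the feature that sets these mRNAs apart from others. A search of the annotated transcripts (GENCODE release 29, GRCh38) for a stem whose 5′ arm begins with GG and ends with T, whose 3′ arm runs from A to CC and can pair with it at every position (G with T allowed), around a loop of 4 bases with T at the third, found it in 32 of the 71 genes and in 293 (1.48%) of 19851 other protein-coding genes. Every transcript of the 71 genes was searched, but only the longest transcript of each other gene, so these shares come from unlike searches. In the 71 genes the stem-loop occurred in the 6 forms below, written as DNA, 5′ to 3′, with the stem in capitals and the loop in lower case.
17 genes, 6 of H2A, 8 of H2B and 3 of H3: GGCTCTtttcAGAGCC
5 genes, all of H4, with HIST1H4B, HIST1H4E, HIST1H4H, HIST1H4J and HIST4H4: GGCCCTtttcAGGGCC
5 genes, 3 of H2B and 2 of H3: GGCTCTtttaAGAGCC
3 genes, all of H4, with HIST1H4I, HIST2H4A and HIST2H4B: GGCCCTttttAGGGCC
HIST1H3E: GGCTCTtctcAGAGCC
HIST1H2AG: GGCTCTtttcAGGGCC
All 8 H4 genes with a match had a stem that begins GGCCCT, and the other 24 matching genes had GGCTCT. The form in HIST1H2AG pairs a T of the 5′ arm with a G of the 3′ arm. The 39 genes without a match include the 33 whose annotated model holds only the coding sequence and stop codon, so that the bases after the stop are not in the model.

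Promoter sequences of 61 of the 71 genes were found in the RefSeq table (GRCh38.p14), as the 250 bases before each gene's start. The octamer ATTTGCAT, on either strand, was present in 11 of 16 H2A and 9 of 13 H2B promoters, in 1 of 13 H3 promoters and in none of the 13 H4 and 6 H1 promoters, against 1.63% of all 35116 promoters in the table. These windows are not all separate: those of 8 divergent pairs overlap, and the H3 promoter with the octamer, that of HIST1H3D, is the same stretch as that of the H2A gene HIST1H2AD. CCAAT, on either strand, was present in 51 of the 61, the exceptions being 10 of the 13 H4 promoters, against 32.0% of all promoters. TATAAA, on either strand, was present in 41 of the 61 and in 10.7% of all promoters. The promoters of HIST1H2BK and HIST3H2A are printed because these genes had the highest levels of H2B and H2A and each shares its promoter region with a divergent partner of much lower level. Capitals mark these motifs in either orientation, and TATAAA overlaps its own reverse complement in the first capital run of HIST1H2BK.
HIST1H2BK, chr6:27146859-27147108, minus strand: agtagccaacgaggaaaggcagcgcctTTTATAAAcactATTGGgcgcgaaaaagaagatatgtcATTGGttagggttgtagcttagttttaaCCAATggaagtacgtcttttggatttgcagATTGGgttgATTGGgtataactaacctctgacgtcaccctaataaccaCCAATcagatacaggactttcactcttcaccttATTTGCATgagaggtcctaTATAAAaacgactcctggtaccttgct
HIST3H2A, chr1:228457874-228458123, minus strand: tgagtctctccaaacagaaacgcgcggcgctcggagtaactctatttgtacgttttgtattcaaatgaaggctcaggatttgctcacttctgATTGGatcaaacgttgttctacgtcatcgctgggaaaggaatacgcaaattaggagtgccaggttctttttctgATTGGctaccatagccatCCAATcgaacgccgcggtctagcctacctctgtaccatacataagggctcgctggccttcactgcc
A match to these letters is a description of the sequence and shows no binding.

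Total counts per library ranged from 27964128 to 44803380, so that 3 counts correspond to between 0.0670 and 0.107 CPM (counts scaled to library size), a limit that covers counting error only. The histone cluster genes took between 0.0289% and 0.0355% of all counts. Deviations from each gene's mean were set against transcript GC content by rank correlation over genes, which are not replicates. The correlations were 0.623, −0.329 and 0.029 in dTAG47 1, 2 and 3, and −0.378, −0.280 and 0.271 in DMSO 1, 2 and 3. They lay between −0.027 and 0.050 in the AGB1 libraries. The tested histone genes had a median GC content of 49.7%, against 48.6% for all tested genes, and the part of GC content in their values was not tested beyond the fits with its trend removed. The cell type is labelled epithelial, and KRT8 and KRT18 were at 27.4 to 54.5 CPM on average per group, EPCAM at 1.69 to 2.47 CPM and CDH1 at 6.61 to 8.21 CPM, beside the mesenchymal filament gene VIM at 344 to 363 CPM. PTPRC, PECAM1 and ALB, markers of other cell types, had group means of at most 0.161 CPM, and COL1A1 was at 24.6 CPM or more in every group. The mRNAs of PRPS1 (109.9, 109 and 103 CPM with dTAG47, AGB1 and DMSO) and PRPSAP1 (29.6, 29.1 and 29.4 CPM) do not check the depletion, since both compounds act on the proteins.

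Most of the histone cluster signal came from a few genes. Of the 71 genes, 59 had a count in some library and 12 had none in any, among them HIST1H1B, which encodes linker histone H1.5, and the testis-type pair HIST1H2AA and HIST1H2BA. By mean level over the 9 libraries, 29 genes were at 1 CPM or more and 13 at 5 CPM or more, and these 13 held 89.1% of the summed histone CPM. HIST1H2BK alone held 31.3%, and with HIST1H1C, HIST3H2A and HIST1H4I it held 62.3%. By class, H2B genes held 48.2% of the sum, H2A genes 20.5%, H4 genes 12.3%, H1 genes 12.2% and H3 genes 6.83%. By location, the HIST1 cluster on chromosome 6 held 77.6% with 55 genes, the HIST3 cluster on chromosome 1 12.9% with 3 genes, the HIST2 cluster on chromosome 1 9.11% with 12 genes, and HIST4H4, the single gene on chromosome 12, 0.427%.

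**Figure D1:**
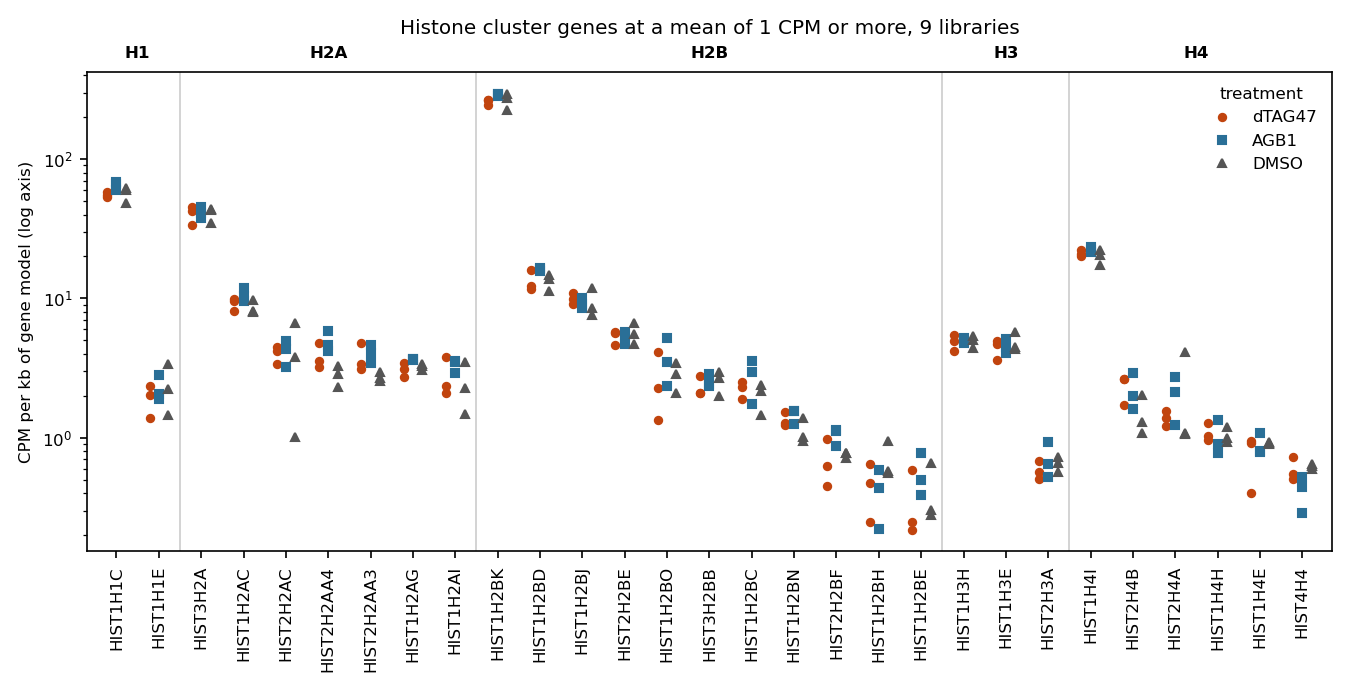
Level of each histone cluster gene with a mean of 1 CPM or more, as CPM per kb of gene model on a log axis, with 1 point per library and the treatments side by side in each column. Points of the 3 treatments lie over one another in most columns, and HIST1H2BK stands above all other genes, at a mean of 270 CPM per kb.

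To compare genes with each other, levels were divided by the length of the gene model and are given as means over the 9 libraries. HIST1H2BK (ENSG00000197903, chromosome 6, 27146418 to 27146798, minus strand), a replication-type H2B gene, was highest at 270 CPM per kb. It was followed by HIST1H1C, which encodes linker histone H1.2, at 59.3 CPM per kb, by HIST3H2A at 40.8 CPM per kb and by HIST1H4I at 21.1 CPM per kb. The ranges of these 4 genes over the 9 libraries did not overlap. The next 3, the H2B genes HIST1H2BD (14.3 CPM per kb) and HIST1H2BJ (9.53) and the H2A gene HIST1H2AC (9.47), overlapped each other in range. The highest H3 gene was HIST1H3H at 4.95 CPM per kb, close to HIST1H3E at 4.61, and the highest HIST2 gene was HIST2H2BE at 5.43.

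HIST1H2BK was at 100.4, 92.6 and 101 CPM with dTAG47, at 112, 107 and 111 CPM with AGB1, and at 85.4, 105 and 112 CPM in DMSO. DMSO 1 was the lowest of the 9 libraries, and all dTAG47 libraries lay below all AGB1 libraries, while both groups overlapped with DMSO. The deposited model of this gene holds only its 381 coding bases and stop codon, while the RefSeq model (H2BC12) extends to 27138293 and runs across HIST1H4I on the opposite strand. Reads from that extension are outside the deposited model of HIST1H2BK, and the strand setting of the counting is not given in the sources used here, so how far they entered the count of HIST1H4I was not tested. HIST1H2BK also shares 50.5% of its 75-base words with other genes, mainly the H2B gene H2BFS, which was at 0.556 CPM.

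HIST1H1C (ENSG00000187837, chromosome 6, 26055787 to 26056428, minus strand) was at 37.5, 34.5 and 35.4 CPM with dTAG47, at 42.8, 38.6 and 44.3 CPM with AGB1, and at 38.3, 31.1 and 39.8 CPM in DMSO. Its dTAG47 libraries all lay below its AGB1 libraries, while AGB1 1 and AGB1 3 lay above all DMSO libraries and AGB1 2 lay within the DMSO range. The other linker histone genes were far lower, with HIST1H1E (H1.4) at 1.46 ± 0.374, 1.71 ± 0.379 and 1.77 ± 0.730 CPM with dTAG47, AGB1 and DMSO (SD, n = 3 each). HIST1H1D (H1.3) had 2, 15 and 1 counts with dTAG47, 12, 11 and 15 with AGB1 and 3, 9 and 7 in DMSO. The testis-type gene HIST1H1T had 9 counts over all libraries and HIST1H1A (H1.1) had 4.

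HIST3H2A (ENSG00000181218, chromosome 1, 228456979 to 228457873, minus strand) was at 40.8, 29.9 and 38.1 CPM with dTAG47, at 33.9, 40.4 and 36.7 CPM with AGB1, and at 31.2, 38.4 and 39.3 CPM in DMSO. The 3 groups overlapped throughout. HIST1H4I (ENSG00000276180, chromosome 6, 27138588 to 27139881, plus strand) was at 27.0, 28.9 and 26.1 CPM with dTAG47, at 30.1, 27.7 and 28.6 CPM with AGB1, and at 22.4, 26.4 and 28.7 CPM in DMSO. Here too DMSO 1 was the lowest library and the groups overlapped. All H4 genes except the divergent HIST1H4G encode the same protein, and HIST1H4G had no count.

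The 2 H3 genes above 5 CPM both encode H3.1. HIST1H3H (ENSG00000278828, chromosome 6, 27810064 to 27811300, plus strand) was at 5.23, 6.79 and 6.16 CPM with dTAG47, at 6.48, 6.23 and 5.89 CPM with AGB1, and at 6.27, 5.42 and 6.61 CPM in DMSO. HIST1H3E was at 11.8 ± 1.84, 12.3 ± 1.43 and 12.9 ± 2.08 CPM with dTAG47, AGB1 and DMSO (SD, n = 3 each). Both overlapped between all groups. Among the genes of the HIST2 cluster, HIST2H2BE (ENSG00000184678, chromosome 1, 149884459 to 149886652, minus strand) was at 12.4, 10.2 and 12.7 CPM with dTAG47, at 10.4, 11.8 and 12.7 CPM with AGB1, and at 10.4, 14.5 and 12.1 CPM in DMSO, again with overlap.

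How much of each gene was annotated went with whether it was counted. Of the 33 genes whose model holds only coding sequence and stop codon, 9 passed the count filter and 11 had no count. Some of these 11 are overlapped by other genes. AL031777.3, with 54 counts, covers HIST1H3D (100% of exonic bases) and HIST1H2AD (98.0%) on the same strand. AC239798.4 covers HIST2H3PS2 (99.5%) on the same strand, and HIST1H2BN covers HIST1H2AK (100%) on the opposite strand. Whether reads of these genes were assigned elsewhere was not tested. Of the 22 genes whose model continues 200 bases or more past a stem-loop, 20 passed and none was without a count. The 10 genes whose model stops within 200 bases of the stem-loop had 6 that passed, and the 6 with untranslated bases but no match had 4. The part of model length in these counts was not tested. Per kb the median level was 0.0885 CPM for the coding-only models and 1.18 CPM for the models that continue 200 bases or more past the stem-loop. The 2 highest genes, HIST1H2BK and HIST1H1C, have coding-only models, which as a set held 44.5% of the summed CPM. AATAAA, the signal used for ordinary polyadenylation, followed the stem-loop in the model of 19 genes.

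Levels of small RNAs that lack a poly(A) tail are given beside this. They do not gauge how far histone mRNA without a tail was carried over, since other steps of library preparation were not separated from the selection. Of 20 such small RNAs, 9 had no count in any library, among them RN7SK and RPPH1, and the rest were under 5 CPM in every group except RN7SL2, which was at 27.4 ± 1.19, 30.03 ± 4.52 and 24.6 ± 5.03 CPM with dTAG47, AGB1 and DMSO (SD, n = 3 each). Their summed level was 31.3 to 33.9 CPM with dTAG47, 30.3 to 40.7 CPM with AGB1 and 23.6 to 33.5 CPM in DMSO, lowest in DMSO 1 as for the summed histone level. The part of carried-over RNA without a tail in the histone values was not tested.

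Divergent partners differed widely in level. By the deposited models there were 12 head-to-head pairs within 1000 bases, 11 of an H2A with an H2B gene and 1 of an H2B with an H3 gene. The latter, HIST1H2BO with HIST1H3J, rests on a deposited HIST1H3J model that reaches 27893106, where the RefSeq model ends at 27890826. HIST1H2BO also pairs with the H2A gene HIST1H2AM, 313 bases away. Both genes passed the count filter in 7 pairs, a single gene in 2 and neither in 3. HIST1H2BK and HIST1H2AH are 330 bases apart and had 270 and 0.936 CPM per kb. HIST3H2A and HIST3H2BB, 233 bases apart, had 40.8 and 2.48 CPM per kb. Among the 7 pairs, the closest per kb was HIST2H2BE with HIST2H2AC, 322 bases apart, at 5.43 and 4.01 CPM per kb. That order depends on model length. In CPM this pair was at 11.9 and 1.56, farther apart than HIST1H2BJ with HIST1H2AG at 9.05 and 7.50. Neither class was always the higher: the H2B gene led in HIST1H2BK with HIST1H2AH and in HIST1H2BJ with HIST1H2AG (9.53 and 3.33 CPM per kb), and the H2A gene led in HIST1H2AC with HIST1H2BC (9.47 and 2.33) and in HIST1H2AI with HIST1H2BL (2.83 and 0.949). The models of HIST1H2BK, HIST1H2AH, HIST2H2AC and HIST1H2BO hold no bases beyond the stop codon, which limits the comparison within those pairs.

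**Figure D2:**
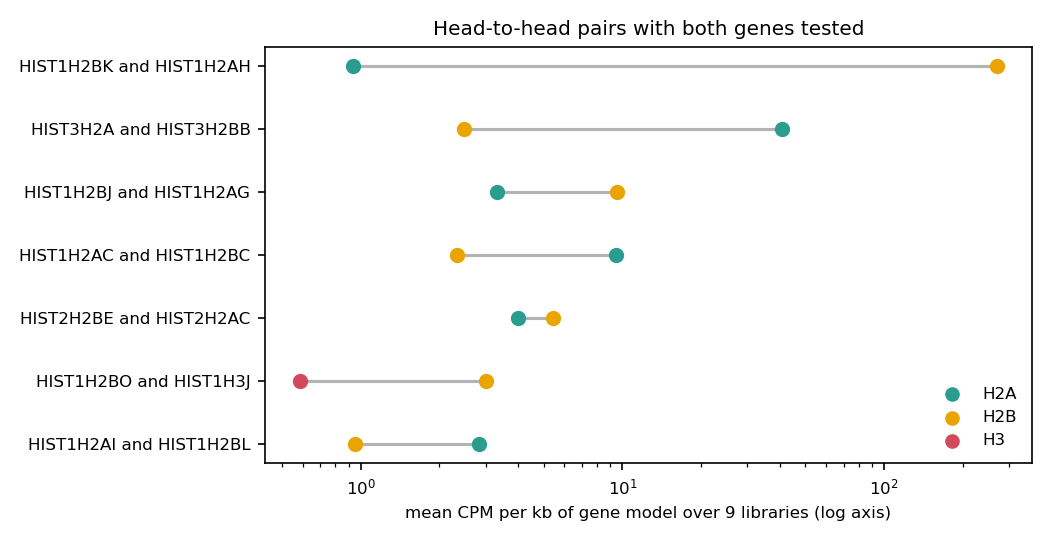
Mean level over 9 libraries, in CPM per kb of gene model on a log axis, of the 7 head-to-head pairs in which both genes passed the count filter, with a line joining the genes of a pair and colour giving the histone class. The pair of HIST1H2BK and HIST1H2AH is the widest, at 270 and 0.936 CPM per kb, and HIST2H2BE with HIST2H2AC the narrowest. Pairs follow the deposited models, and that of HIST1H2BO with HIST1H3J rests on a HIST1H3J model longer than the RefSeq one.

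Summed over all 71 genes, the histone cluster level was 326, 305 and 322 CPM with dTAG47, 344, 349 and 356 CPM with AGB1, and 288, 325 and 346 CPM in DMSO. The means were 318 ± 10.8, 349.9 ± 6.11 and 319.5 ± 29.3 CPM (SD, n = 3 each), and no test was run on this sum. All AGB1 libraries lay above all dTAG47 libraries, and AGB1 and DMSO overlapped by a single library on each side (AGB1 1 at 344 and DMSO 3 at 346 CPM). DMSO 1 was the lowest of the 9, and without it the DMSO mean was 335 CPM. The H2B sum was 146 to 156 CPM with dTAG47, 168 to 170.5 CPM with AGB1 and 135 to 167 CPM in DMSO, so the AGB1 libraries lay above all others. The lowest AGB1 library was at 168.3 and the highest DMSO library at 167.3 CPM. HIST1H2BK held 31.3% of the summed histone CPM, where all H2B genes held 48.2%, and itself overlapped between AGB1 and DMSO. Sums of H1, H2A, H3 and H4 overlapped between AGB1 and DMSO, and H3 was 21.6 ± 1.68, 22.5 ± 2.07 and 23.3 ± 2.13 CPM with dTAG47, AGB1 and DMSO (SD, n = 3 each). In bulk RNA, a different share of cells in S phase and a different amount of histone RNA per cell cannot be told apart.

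**Figure D3:**
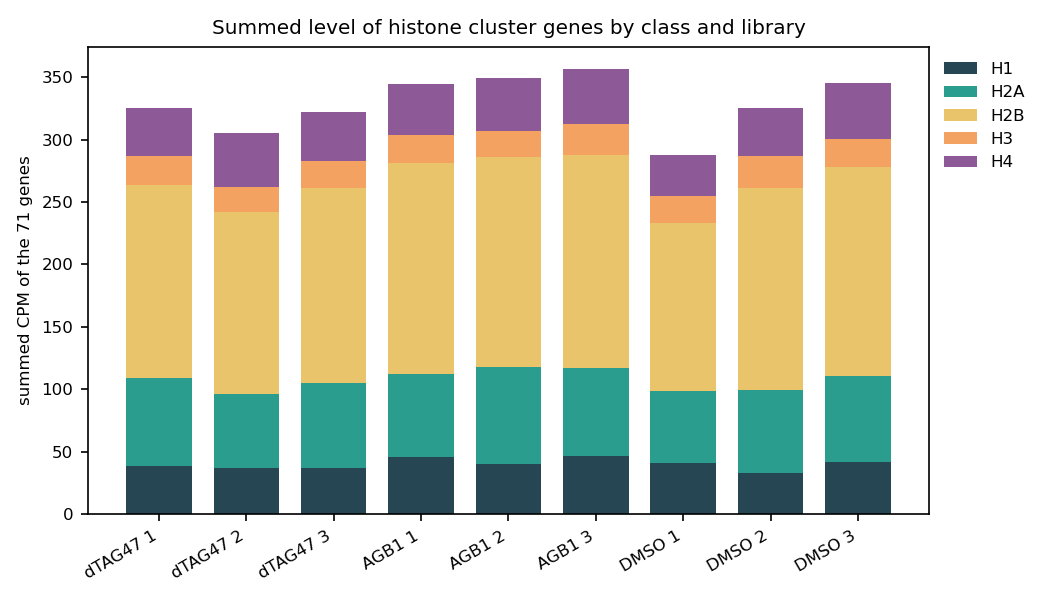
Summed CPM of the 71 histone cluster genes in each library, stacked by histone class, with dTAG47, AGB1 and DMSO libraries from left to right. The AGB1 bars reach 344 to 356 CPM, the dTAG47 bars 305 to 326 CPM and the DMSO bars 288 to 346 CPM.

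The comparison with DMSO asks how histone RNA responded to each degrader. Counts were fitted for 18319 genes, among them 39 of the 71 histone genes, 3 of H1, 8 of H2A, 13 of H2B, 8 of H3 and 7 of H4. The 32 others had at most 61 counts over the 9 libraries and were not tested. Both comparisons use the same DMSO libraries, so their values are not independent. Genes are named below as the highest in their class or cluster or because their change was among the largest relative to its error, which was read from these values.

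With dTAG47, no histone cluster gene passed the threshold of an adjusted p of 0.05 in edgeR's quasi-likelihood test with Benjamini-Hochberg adjustment, where 0.0600% of all tested genes did. DESeq2 also called none. At an unadjusted p under 0.05 there were 3 histone genes of 39, beside 7.28% of all tested genes. HIST2H4B was higher, where 3.65% of tested genes were, and HIST1H2AH and HIST1H3J were lower, where 3.62% were. Log2 fold changes were positive in 18 of 39, against 49.7% of all tested genes, with a median of −0.0089 beside −0.00097 for all tested genes. All 3 dTAG47 libraries lay above all DMSO libraries for HIST2H2AA3 alone and below for HIST1H3J alone, where 5.80% and 5.82% of tested genes did so. The 4 highest genes had log2 fold changes of −0.04 for HIST1H2BK (95% interval −0.20 to 0.11), −0.03 for HIST1H1C (−0.22 to 0.17), −0.0066 for HIST3H2A (−0.23 to 0.21) and 0.08 for HIST1H4I (−0.13 to 0.29).

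HIST1H3J (ENSG00000197153, chromosome 6, 27890382 to 27893106, minus strand), an H3.1 gene, had 0.256, 0.447 and 0.192 CPM with dTAG47, 0.163, 0.107 and 0.227 CPM with AGB1, and 0.969, 0.873 and 0.857 CPM in DMSO. Every DMSO library lay above every treated library, on 28 to 32 counts in DMSO, 6 to 20 with dTAG47 and 3 to 7 with AGB1. The log2 fold change was −1.56 ± 0.644 (SE) with dTAG47 and −2.41 ± 0.692 with AGB1, and the edgeR adjusted p was 0.615 and 0.257. Over the alternatives tried, the adjusted p lay between 0.456 and 0.912 with dTAG47 and between 0.165 and 0.618 with AGB1. Its model overlaps HIST1H2AM on the same strand over 44.6% of its exonic bases, and HIST1H2AM had 1 count in all. In the deposited models its divergent neighbour is HIST1H2BO, 356 bases away. The RefSeq model of HIST1H3J (H3C12) spans only 27890315 to 27890826, so this gap rests on the longer deposited model. HIST1H2BO was at 0.983 ± 0.534, 1.40 ± 0.544 and 1.07 ± 0.254 CPM with dTAG47, AGB1 and DMSO (SD, n = 3 each), with overlap.

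The H2A gene HIST1H2AH had 8, 14 and 2 counts with dTAG47, 12, 5 and 5 with AGB1 and 7, 33 and 28 in DMSO. DMSO 1 lay within the range of the treated libraries, and the edgeR adjusted p was 0.661 for a log2 fold change of −1.67 ± 0.767 (SE) with dTAG47. In the HIST2 cluster, HIST2H4B was at 3.30, 5.11 and 5.10 CPM with dTAG47, at 3.09, 5.66 and 3.85 CPM with AGB1, and at 2.09, 3.90 and 2.49 CPM in DMSO. Its log2 fold change with dTAG47 was 0.68 ± 0.260 (SE, edgeR adjusted p = 0.554), the lowest adjusted p of any histone gene in that comparison, and the groups overlapped. Its near-identical copy HIST2H4A was at 2.60 ± 0.325, 3.81 ± 1.42 and 3.90 ± 3.28 CPM with dTAG47, AGB1 and DMSO (SD, n = 3 each), with DMSO 3 at 7.68 CPM against 2.03 and 1.99 CPM in the other DMSO libraries. HIST2H4A and HIST2H4B share over 95% of their 75-base words, so reads could be split between them in either way. With the counts of both copies summed, the log2 fold change was 0.07 with dTAG47 (−0.41 to 0.55) and 0.24 with AGB1 (−0.24 to 0.72).

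With AGB1, no histone cluster gene passed the threshold by edgeR or by DESeq2, where edgeR called 0.104% of all tested genes. At an unadjusted p under 0.05 there were 7 of 39, against 7.76% of all tested genes. Of these, 6 were higher, where 3.55% of tested genes were, and HIST1H3J was lower, where 4.21% were. Positive log2 fold changes were found in 23 of 39, against 49.7% of all tested genes, and the median was 0.11 beside −0.00092 for all tested genes. Among the 13 histone genes at 5 CPM or more, 9 were positive and the median was 0.13. The median over all tested histone genes moved by 0.06 (SD) between the libraries of a group and was 0.08 without AGB1 3 and 0.17 to 0.18 without DMSO 2 or DMSO 3. All 3 AGB1 libraries lay above all DMSO libraries for 6 of the 39 genes and below for 2, where 6.56% and 6.75% of tested genes did so.

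These 6 genes were HIST1H1D, HIST2H2AA3, HIST2H2AA4, HIST1H2AG, HIST1H2BD and HIST2H2BF, and the 2 lower ones HIST1H3J and HIST4H4. HIST2H2AA4, an H2A gene of the HIST2 cluster, was at 2.70, 2.01 and 1.83 CPM with dTAG47, at 2.36, 2.61 and 3.27 CPM with AGB1, and at 1.85, 1.62 and 1.31 CPM in DMSO. Its log2 fold change was 0.79 ± 0.293 (SE) with AGB1 and 0.45 ± 0.294 with dTAG47, and the edgeR adjusted p with AGB1 was 0.464. Its copy HIST2H2AA3 holds the same words, and the summed copies were at 5.32, 3.86 and 3.53 CPM with dTAG47, 4.58, 5.15 and 5.15 CPM with AGB1, and 3.48, 3.09 and 2.70 CPM in DMSO. All 6 treated libraries lay above all DMSO libraries for this sum. Its log2 fold change was 0.68 with AGB1 (95% interval 0.24 to 1.12, edgeR adjusted p = 0.347) and 0.46 with dTAG47 (0.01 to 0.90, adjusted p = 0.677).

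Among genes of higher level, HIST1H2AC (ENSG00000180573, chromosome 6, 26124145 to 26139116, plus strand) was at 13.5, 16.6 and 15.97 CPM with dTAG47, at 15.9, 19.7 and 17.4 CPM with AGB1, and at 13.5, 13.3 and 16.3 CPM in DMSO. AGB1 1 lay below DMSO 3, and the log2 fold change with AGB1 was 0.30 (95% interval 0.04 to 0.56, edgeR adjusted p = 0.552). HIST1H2BN was at 8.44, 6.79 and 7.02 CPM with dTAG47, at 6.91, 8.48 and 8.58 CPM with AGB1, and at 5.21, 7.54 and 5.57 CPM in DMSO. Both compounds overlapped with DMSO through DMSO 2, and the log2 fold change was 0.28 ± 0.175 (SE) with dTAG47 and 0.39 ± 0.175 with AGB1 (edgeR adjusted p = 0.590). The model of HIST1H2BN covers the whole of the H2A gene HIST1H2AK on the opposite strand, and HIST1H2AK is listed at 0. HIST1H2BK had a log2 fold change of 0.13 with AGB1 (−0.02 to 0.29), HIST1H1C 0.20 (0.01 to 0.40, edgeR adjusted p = 0.611), HIST3H2A 0.02 (−0.20 to 0.24) and HIST1H4I 0.16 (−0.05 to 0.37).

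Of the genes with negative values, HIST1H2BH had 18, 44 and 42 counts with dTAG47, 17, 34 and 28 with AGB1 and 65, 38 and 43 in DMSO, with overlap in both comparisons and a log2 fold change of −0.75 ± 0.465 (SE) with AGB1. HIST4H4 (ENSG00000197837, chromosome 12, 14767999 to 14771131, minus strand) was at 1.88, 1.30 and 1.41 CPM with dTAG47, at 1.36, 1.15 and 0.745 CPM with AGB1, and at 1.54, 1.62 and 1.66 CPM in DMSO. All AGB1 libraries lay below all DMSO libraries, and the log2 fold change of −0.57 ± 0.367 (SE) did not pass the threshold (edgeR adjusted p = 0.753).

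**Figure D4:**
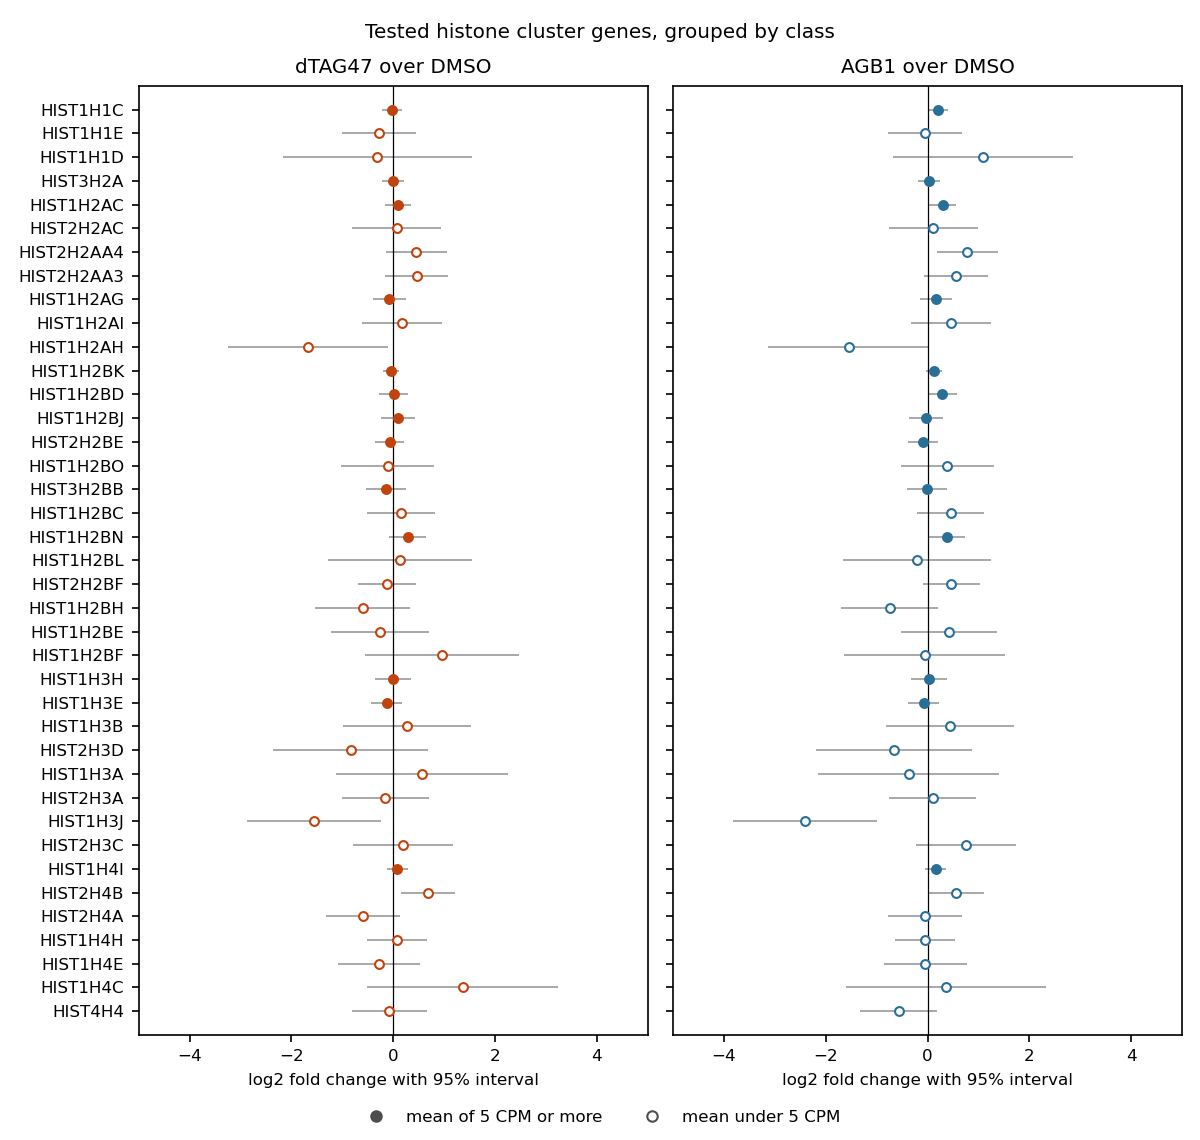
Log2 fold change over DMSO of the 39 tested histone cluster genes with dTAG47 (left) and AGB1 (right), with 95% intervals and with filled points for genes at a mean of 5 CPM or more. Intervals are narrowest for the high genes, with a smallest half-width of 0.155 for HIST1H2BK, and widest for genes of few counts such as HIST1H4C.

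Set directly against each other, dTAG47 and AGB1 gave no histone gene past the threshold in edgeR or DESeq2, where edgeR called 0% of all tested genes. At an unadjusted p under 0.05 there were 3 of 39, HIST1H1C, HIST1H2BK and HIST2H2BF, all lower with dTAG47, against 4.02% of all tested genes, of which 1.77% were lower and 2.25% higher. Log2 fold changes of dTAG47 over AGB1 were positive in 11 of 39, against 50% of all tested genes, and their median was −0.13 beside 0.000055 for all tested genes. All dTAG47 libraries lay below all AGB1 libraries for HIST1H1C, HIST1H2AG, HIST1H2BK and HIST2H3C, and above for none, where 5.10% and 5.35% of tested genes did so. HIST1H2BK had a log2 fold change of −0.17 (95% interval −0.33 to −0.02) and HIST1H1C of −0.23 (−0.42 to −0.04), each with an edgeR adjusted p of 0.999. HIST1H2AG was at 7.70, 6.19 and 6.96 CPM with dTAG47, at 8.32, 8.12 and 8.25 CPM with AGB1, and at 6.90, 7.67 and 7.36 CPM in DMSO. HIST2H2BF was at 2.02, 3.13 and 1.44 CPM with dTAG47, at 3.604, 2.79 and 3.66 CPM with AGB1, and at 2.48, 2.49 and 2.30 CPM in DMSO, with dTAG47 2 above AGB1 2. HIST1H2BF, with 28, 32 and 8 counts with dTAG47, 11, 6 and 11 with AGB1 and 12, 16 and 2 in DMSO, had a log2 fold change of 1.02 ± 0.745 (SE).

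All 8 tested H2A genes, the copies HIST2H2AA3 and HIST2H2AA4 among them, had lower fitted values with dTAG47 than with AGB1, with a median of −0.16. These values ran from −0.33 to −0.03, and none of the 8 had an unadjusted p under 0.05, beside 4.02% of all tested genes. The 3 tested H1 genes were also all lower with dTAG47, with a median of −0.23, while 4 of the 7 tested H4 genes were higher, with a median of 0.11. Over DMSO, the AGB1 medians were 0.20 for H1, 0.23 for H2A, 0.13 for H2B, −0.03 for H3 and −0.04 for H4, and the dTAG47 medians were −0.28, 0.09, −0.04, −0.07 and 0.07. These medians rest on 3 to 13 genes each, several of them copies, and differences between classes were not tested. The median biological coefficient of variation between libraries was 11.9% for the 13 histone genes at 5 CPM or more, beside 7.35% for all 11436 genes above that level, and 34.5% for the 26 tested histone genes under it, beside 38.1% for all 6883 genes. These sets were not matched on level within each range.

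No gene on the lists of factors that make, process, degrade and translate histone mRNA passed the threshold in edgeR, nor did those named here in DESeq2. At an unadjusted p under 0.05 there were 2 of 11 transcription, 1 of 18 processing and 0 of 12 decay and translation genes with dTAG47, and 2, 0 and 1 with AGB1. Over all tested genes these shares were 7.28% with dTAG47 and 7.76% with AGB1, and 49.7% of all tested genes had a positive value in each comparison. Of the 11 regulators of histone gene transcription, 4 had positive values with dTAG47 and 5 with AGB1, with medians of −0.03 and −0.01. NPAT, the coactivator of the histone locus body, was at 41.4 ± 4.73, 40.9 ± 0.601 and 43.2 ± 5.38 CPM with dTAG47, AGB1 and DMSO (SD, n = 3 each). CASP8AP2, a further protein of that body, was at 34.2 ± 1.39, 31.1 ± 0.720 and 38.0 ± 3.18 CPM, with a log2 fold change of −0.29 ± 0.089 (SE) with AGB1 and an edgeR adjusted p of 0.321. POU2F1, the octamer-binding protein OCT1, had −0.21 ± 0.083 with dTAG47 (edgeR adjusted p = 0.575). Of the 2 transcription genes at an unadjusted p under 0.05 with each compound, 1 was higher and 1 lower. The highest values of that list were 0.16 with dTAG47 and 0.13 with AGB1.

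Of 18 genes for 3′ end processing, 8 were positive with dTAG47 and 13 with AGB1, with medians of −0.0018 and 0.01. SLBP, which binds the stem-loop, was at 179.7 ± 2.05, 185 ± 7.09 and 175 ± 5.73 CPM with dTAG47, AGB1 and DMSO (SD, n = 3 each), and its log2 fold change was 0.04 ± 0.055 (SE) with dTAG47 and 0.09 ± 0.055 with AGB1. CSTF2, a subunit of the cleavage stimulation factor, was at 127 ± 1.16, 125 ± 5.27 and 115 ± 5.40 CPM, and its log2 fold change was 0.14 with dTAG47 (edgeR adjusted p = 0.620) and 0.12 with AGB1 (0.645). Of 12 genes for histone mRNA decay and translation, 7 were positive with each compound, with medians of 0.03 and 0.03. UPF1, a helicase of histone mRNA decay, had a log2 fold change of 0.10 ± 0.057 (SE) with dTAG47, and TUT4, a uridylyltransferase, had −0.12 ± 0.067. The 1 gene of this list at an unadjusted p under 0.05 with AGB1 was higher, and the highest AGB1 value was 0.13.

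Of 20 genes that mark S phase, SLBP among them, none passed the threshold in edgeR, with 2 at an unadjusted p under 0.05 with dTAG47, beside 7.28% of all tested genes, and 1 with AGB1, beside 7.76%. Of these 20, beside 49.7% of all tested genes in each comparison, 12 were positive with dTAG47 and 13 with AGB1, with medians of 0.0077 and 0.0055. PCNA, the replication clamp, was at 337 ± 8.27, 339.5 ± 8.20 and 345 ± 7.28 CPM with dTAG47, AGB1 and DMSO (SD, n = 3 each). TYMS, thymidylate synthase, had the highest fold change of the list with AGB1, 0.22 ± 0.089 (SE, edgeR adjusted p = 0.523), and CLSPN, a checkpoint mediator, had −0.17 ± 0.070 with dTAG47 (adjusted p = 0.614). Of the 2 genes at an unadjusted p under 0.05 with dTAG47, 1 was higher and 1 lower, and the highest dTAG47 value was 0.18.

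The replacement histones, made from polyadenylated mRNAs, far exceeded the cluster genes in these libraries. Their 12 genes summed to 2891 ± 58.4, 2957 ± 41.3 and 2849 ± 171 CPM with dTAG47, AGB1 and DMSO (SD, n = 3 each), against 318, 349.9 and 319.5 CPM for the 71 cluster genes. H3F3B and H3F3A, which both encode H3.3, were at 695 ± 18.8, 709.5 ± 21.2 and 671 ± 19.5 CPM and at 409.7 ± 7.93, 432 ± 8.71 and 407 ± 24.1 CPM. None of the 12 passed the threshold in edgeR and none had an unadjusted p under 0.05 in either comparison with DMSO, where 7.28% of all tested genes did with dTAG47 and 7.76% with AGB1. Of the 12, 7 were positive with dTAG47 and 8 with AGB1, beside 49.7% of all tested genes in each, and the medians were 0.0057 and 0.03, against −0.0089 and 0.11 for the cluster genes.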

How the data were processed

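RNA-seq counts of 9 libraries, 3 per group, were used; groups and replicate numbers come from the sample titles. Each deposited file gives whole-number read counts for Ensembl genes, which the authors had not normalized. Per the labels' protocols, mRNA was selected with poly-T beads and primed with random hexamers. HISAT2, DESeq2 and the build hg38 are named per the submitters' processing notes; no source used here gives the counting tool, its strand setting or any version. All 58735 gene models match GENCODE release 29.

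In edgeR 4.0.16 (R 4.3.3), genes were kept by filterByExpr, libraries scaled by TMM, and 1 quasi-likelihood model fitted to all 9 libraries, with Benjamini-Hochberg adjustment over 18319 genes and a threshold of 0.05. CPM use TMM-scaled library sizes. SE was taken as the log2 fold change, without sign, over the root of F. Shared sequence was measured in 75-base words. Alternatives were DESeq2 1.42.0, its size factors, library sizes alone, other count filters, only the 2 groups compared, a replicate block, removal of the GC trend, summed copies, and each library left out. The fit was tested on simulated data. Libraries of a group differed by 6.06 to 16.1 chi-square units per degree of freedom, so none was a second copy.

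The genes and lists were chosen with earlier results of these data known. By rule the text names the highest gene of each class and cluster. In each comparison it names the 3 tested histone genes with the most positive and the 3 with the most negative signed root of F. For the lists the rule gave SLBP, NPAT and up to 3 genes per list and comparison with the smallest p. Only some of these list genes are named above. Other genes named were chosen after their values were seen.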

Additional observations from a re-analysis of the deposited data

How the results depend on the processing

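No histone cluster gene passed the threshold under any of the 19 alternatives run per comparison with edgeR or DESeq2, summed copies included. For the 17 histone genes named by rule, none of 907 alternative values passed and 41 changed sign, among them dTAG47 values of HIST1H2BK (−0.15 to 0.04) and HIST1H1C (−0.13 to 0.04). Counts over all genes moved more. DESeq2 called 47 genes with dTAG47 and 75 with AGB1, against 11 and 19 in edgeR. Without a count filter 43, 67 and 13 were called with dTAG47, with AGB1 and between the compounds. Fitting only the 2 groups compared called 4 with dTAG47, and removing the GC trend called 22 with dTAG47 and 48 with AGB1. With each library left out, 2 to 20 genes were called with dTAG47 (20 without DMSO 3, 2 without dTAG47 1), 6 to 55 with AGB1 (55 without DMSO 3, 6 without AGB1 3) and 0 to 2 between the compounds. The cause was not tested.

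The histone median over DMSO lay between −0.06 and 0.04 with dTAG47 (above 0 without DMSO 2, DMSO 3, dTAG47 2 or dTAG47 3) and between 0.082 and 0.176 with AGB1 as each library was left out. Between the compounds it lay between −0.17 and −0.12, and it was −0.17 with DESeq2 and −0.19 with a filter of 1 CPM in 3 libraries. Deviations from the group mean were little correlated between same-numbered libraries of different groups (−0.156 to 0.0715), which does not settle whether the libraries were paired. With the replicate block 10, 17 and 0 genes were called and the median between the compounds was −0.17; with the block and the GC trend removed, 51 genes were called with AGB1 and that median was −0.19. Depth limits what low genes can show: with dTAG47 the median standard error was 0.44 for the tested histone genes under 5 CPM, against 0.14 at 5 CPM or more.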

Other observations

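Outside the protein-coding genes, 19 pseudogenes with HIST names were listed, 6 of them with no count. HIST2H2BC (ENSG00000261716, chromosome 1, 149844498 to 149850937, minus strand), annotated as a transcribed pseudogene of H2B, was higher than any coding gene of the HIST2 cluster, at 19.9 ± 2.78, 22.3 ± 1.43 and 21.0 ± 2.79 CPM with dTAG47, AGB1 and DMSO (SD, n = 3 each), beside a mean of 11.9 CPM for HIST2H2BE. HIST2H2BD, whose model (149842875 to 149846486) overlaps that of HIST2H2BC on the opposite strand, was at 7.50 ± 0.602, 8.69 ± 1.22 and 6.99 ± 1.81 CPM. How far reads of this overlap entered either count was not tested. Per kb of model HIST2H2BC was at 3.27 CPM, below HIST2H2BE at 5.43 CPM. The RefSeq span of the H4 gene HIST2H4B (H4C15), 149844488 to 149861240 on the same strand, contains HIST2H2BC. How far reads of HIST2H4B entered the count of HIST2H2BC was not tested.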
